A study of Mus musculus with 31 samples.

Results

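The 10 genes *Mgp*, *Fstl3*, *Ccdc3*, *Pdpn*, *Fcer1g*, *Kcnab2*, *Dio2*, *Ptpn7*, *Crip1* and *S100a16* mark a mouse melanoma line in which the glucocorticoid receptor (GR) gene was disrupted (GR KO). They are 10 of the 39179 genes counted and were picked from these data, for a large difference between GR KO and parental samples that had received no glucocorticoid (GC), in cultured cells or in tumors. Their differences without drug are therefore described and not tested. The question here is which of the 10 keep the difference in each system and under the GC clobetasol propionate, in libraries that the choice of genes did not use.

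RNA came from whole tumors and from cultures of the line 20967, derived from a C57BL/6 mouse model of melanoma in which a tamoxifen-dependent Cre, expressed from the tyrosinase promoter in melanocytes, switches on oncogenic *Nras*. *In vivo*, the parental line or its GR KO derivative grew intradermally in wild-type C57BL/6 mice that received either control treatment or clobetasol propionate 0.05% ointment 3 times a week (5 tumors in each of the 4 groups). *In vitro*, cells received clobetasol propionate for 48 h (2 parental and 3 GR KO cultures) or DMSO alone (3 of each genotype), with a GC dose of 10 µM in the treatment label and 1 µM in the library names. The 3′ tags of polyadenylated RNA were sequenced, and levels are given as normalised read counts relative to the library total (CPM), scaled by the TMM method within tumors or within cultures, with log2 differences written as GR KO minus parental.

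The GR KO cells were made with Cas9 and grown from single cell colonies. The labels do not say how many colonies the samples represent, and the GR KO cultures carry a shared name in their library labels. Loss of the receptor and any other difference between that clone and the parental population cannot be told apart. Host cells in the tumors had an intact GR gene, and ages and sex of the mice are not in the labels. Nothing in the labels says that cultures of a group were started independently, so p-values measure only the spread between these samples.

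GR is a nuclear receptor that moves to the nucleus when a GC binds it and then raises or lowers transcription of target genes, including *Tsc22d3*, *Per1* and *Fkbp5*. The 10 genes have no common pathway. They encode secreted proteins of the matrix and of activin signaling, membrane proteins of stromal and myeloid cells, and a subunit of potassium channels. The others encode enzymes of thyroid hormone and phosphotyrosine metabolism, and small intracellular metal-binding proteins.

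The melanocyte label was checked against 8 markers of the lineage. In the 11 cultures, 5 of the 8 (*Sox10*, *Tyr*, *Dct*, *Mlana* and *Gpr143*) had no read. *Mitf*, the regulator of the melanocyte lineage, was the most abundant of the list, with means of 10.1 and 10.6 CPM in the DMSO and GC groups of parental cultures, and 3.96 and 5.25 CPM in those of GR KO cultures. *Tyr* and *Gpr143* also had no read in tumors, where the mean of *Mitf* was 26.1 to 42.1 CPM by group. The pigment cell markers other than *Mitf* were thus absent or close to 0 in the cultured line.

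*Nr3c1*, the gene of GR itself, was read in every library. Parental tumors had 63.4, 57.1, 44.9, 55.6 and 52.2 CPM with control treatment and 53.4, 24.4, 48.2, 37.3 and 49.8 with GC. GR KO tumors had 20.7, 27.3, 31.4, 31.8 and 23.5 CPM with control treatment and 47.9, 21.7, 58.0, 32.5 and 49.4 with GC. Control GR KO tumors lay below every control parental tumor, whereas the GC-treated groups overlapped. Cultures had 33.2, 30.0 and 35.6 CPM (parental, DMSO), 39.5 and 33.4 (parental, GC), 24.8, 21.0 and 16.4 (GR KO, DMSO) and 20.9, 22.4 and 13.1 (GR KO, GC). Each GR KO culture was below each parental culture. The log2 difference was -1.02 in control tumors (adjusted p = 0.0313), -0.02 in GC-treated tumors (0.981), -0.67 with DMSO (0.0840) and -0.95 in GC-treated cultures (0.0384). Tags from the 3′ end do not read the edited site and so do not check the edit.

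Response genes of GR give a readout of receptor function. In GC-treated cultures, *Tsc22d3*, an anti-inflammatory leucine zipper protein, was at 116 and 114 CPM in parental and 20.5, 14.5 and 17.0 CPM in GR KO cells, a log2 difference of -2.73 (adjusted p = 9.84e-06). *Per1*, a repressor of the circadian clock, differed by -2.82 (adjusted p = 9.56e-05) and *Fkbp5*, a co-chaperone of GR, by -2.61 (adjusted p = 0.00316). With DMSO the GR KO mean of each of these 3 genes was slightly above the parental mean, with log2 differences of 0.10 to 0.41 and adjusted p of 0.194 to 0.892. In GC-treated tumors, which hold host cells, *Per1* was lower in GR KO (-1.24, adjusted p = 0.0242), whereas *Tsc22d3* (-0.69, adjusted p = 0.239) and *Fkbp5* (-0.48, adjusted p = 0.610) did not pass the threshold. In control tumors *Fkbp5* was lower in GR KO without GC (-1.50, adjusted p = 0.0296), with every GR KO tumor below every parental tumor, whereas *Tsc22d3* (-0.12, adjusted p = 0.804) and *Per1* (-0.33, adjusted p = 0.499) did not pass.

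Tumor libraries differed in composition before any member was considered. The gene *Gm26924* took 11.6%, 8.97%, 6.57%, 0.248% and 16.3% of the counts in the 5 control GR KO tumors, 5.55% in parental control tumor 1 and 6.65% in GR KO GC tumor 4. In the other 13 tumors it took 0.439% to 2.89%. Counts on mitochondrial genes were 0.587% to 1.15% of the total in control GR KO tumors, 1.25% to 2.47% in control parental tumors and 1.33% to 2.24% in GC-treated tumors. All 5 control GR KO tumors thus had a lower mitochondrial share than any other tumor, and 4 of them a *Gm26924* share of over 5%, which 2 of the 15 other tumors had. The part of this in the differences of that group was not tested. Values of members are given below also without the 6 tumors that had over 5% of counts on *Gm26924*. Markers, related genes and other named genes were not refitted in this way. The alternative was chosen after seeing the data and leaves only tumor 4 in the control GR KO group.

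Among the secreted members, *Mgp* encodes matrix Gla protein, a vitamin K-dependent inhibitor of calcification. Parental tumors had 1500.4, 1512, 3157, 1795 and 2222 CPM with control treatment and 1895, 646, 2882, 714 and 2028 CPM with GC. GR KO tumors had 379, 169, 328, 345 and 291 CPM with control treatment and 405, 493, 423, 665 and 721 CPM with GC. All control GR KO tumors were below all control parental tumors, while with GC the groups overlapped, as parental tumors 2 and 4 were within the GR KO range. In culture, parental cells had 205, 102 and 199 CPM with DMSO and 363 and 304 with GC, and GR KO cells had 1.51, 2.39 and 1.56 with DMSO and 3.19, 2.17 and 0.694 with GC. The GR KO cultures kept a low signal that was 158-fold lower (95% counting interval 131 to 192) than in parental cultures with GC, computed from pooled reads. Intervals of this kind and the floors given for groups without a read cover counting error only.

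*Fstl3* encodes a secreted follistatin-like protein that binds activins and myostatin. Control tumors had 54.8, 56.6, 35.3, 53.6 and 30.7 CPM in the parental and 62.6, 62.1, 28.3, 34.2 and 66.0 CPM in the GR KO group. With GC the parental tumors had 79.6, 77.6, 102, 80.5 and 72.8 CPM and the GR KO tumors 40.9, 55.0, 21.6, 33.5 and 23.7 CPM. Control tumors of the genotypes overlapped, whereas each GC-treated GR KO tumor was below each GC-treated parental tumor. Cultures had 35.6, 46.4 and 29.8 CPM (parental, DMSO), 97.8 and 113 (parental, GC), 0.312, 0.382 and 0.538 (GR KO, DMSO) and 0.741, 0.425 and 0.694 (GR KO, GC). In culture the GR KO level was under 1 CPM in every library, 177-fold lower (95% counting interval 126 to 257) with GC.

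*Ccdc3* encodes a secreted coiled-coil protein. Parental tumors had 54.6, 48.1, 41.3, 45.9 and 34.4 CPM with control treatment and 144, 336, 117, 256 and 169.6 CPM with GC. GR KO tumors had 3.30, 11.2, 5.12, 16.4 and 6.64 CPM with control treatment and 7.04, 10.7, 7.10, 5.56 and 2.63 CPM with GC. Every GR KO tumor was below every parental tumor of the same treatment, and the GC-treated parental tumors were the highest of the 4 groups. In culture the parental level was 1.43, 0.862 and 0.999 CPM with DMSO and 6.83 and 11.7 CPM with GC. No read was found in the 3 GR KO cultures with DMSO, against 53 reads in parental cultures, which makes *Ccdc3* at least 21.4-fold lower with the floor set at 3 reads over the group. With GC, 1 read in GR KO cultures stood against 359 in parental cultures, a level 535-fold lower (95% counting interval 95.3 to 21172).

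Of the membrane members, *Pdpn* encodes podoplanin, a mucin-type glycoprotein of lymphatic endothelium and stromal fibroblasts. In control tumors its level was 243, 363, 246, 263 and 308 CPM in the parental and 435, 482, 342, 399 and 425 CPM in the GR KO group, with 4 of 5 GR KO tumors above all parental tumors. In GC-treated tumors it was 296, 533, 367, 445 and 333 CPM (parental) and 359.7, 372, 346, 283 and 185 CPM (GR KO), and the groups overlapped. In cultures the groups were far apart, at 90.4, 126 and 94.5 CPM with DMSO and 45.9 and 58.6 with GC in parental cells against 0.779, 1.77 and 2.31 CPM (DMSO) and 1.20, 1.46 and 1.45 CPM (GC) for GR KO cells. The direction without drug was thus opposite in the control tumors (log2 0.55) and in the DMSO cultures (-6.00).

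*Fcer1g* encodes the gamma chain shared by Fc receptors, an adaptor of myeloid and mast cells. Parental tumors had 556, 617, 483, 396 and 639 CPM with control treatment and 487, 555, 394, 829.7 and 548 CPM with GC. GR KO tumors had 619.9, 668, 639.9, 423 and 481 CPM with control treatment and 398, 501, 529.6, 414 and 408 CPM with GC. The genotypes overlapped with either treatment. Parental cultures, grown without host tissue, had 274, 292 and 221 CPM with DMSO and 170.1 and 203 CPM with GC. GR KO cultures had 6.33, 4.39 and 6.19 CPM with DMSO and 6.502, 6.99 and 7.07 CPM with GC, all below every parental culture. Macrophage and monocyte markers in the same cultures were close to 0, with a summed level of 5.91 ± 3.61 CPM (SD, n = 3) over 10 genes in parental cells with DMSO and 7.73 ± 2.65 CPM in GR KO cells with DMSO. The most abundant of them was *Cd14*, at 2.82 CPM in parental and 4.64 CPM in GR KO cells with DMSO, *Emr1* had no read, and the 6 mast cell markers had none in 11 cultures.

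*Kcnab2* encodes a beta subunit of voltage-gated potassium channels. Its level in control tumors was 32.0, 20.5, 30.5, 29.7 and 21.9 CPM (parental) and 28.1, 37.7, 19.5, 39.96 and 44.8 CPM (GR KO). In GC-treated tumors it was 29.9, 33.4, 18.4, 44.1 and 23.1 CPM (parental) and 14.2, 24.7, 22.6, 22.9 and 13.1 CPM (GR KO). The genotypes overlapped in each treatment. Cultures had 13.3, 13.1 and 10.9 CPM (parental, DMSO), 7.31 and 10.5 (parental, GC), 0, 0 and 0.0538 (GR KO, DMSO) and 0.228, 0.378 and 0.442 (GR KO, GC). With DMSO a single read in GR KO stood against 602 in parental cultures, a level 728-fold lower (95% counting interval 130.1 to 28789). With GC, 19 reads stood against 338, 26.5-fold lower (95% counting interval 16.7 to 44.5).

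Among the enzymes, *Dio2* encodes the deiodinase that converts thyroxine to the active thyroid hormone. Parental tumors had 176, 188, 239.8, 201 and 149.7 CPM with control treatment and 346, 252, 299, 145 and 238 CPM with GC. GR KO tumors had 39.3, 28.4, 19.9, 60.4 and 50.8 CPM with control treatment and 49.1, 78.8, 57.6, 58.6 and 65.4 CPM with GC. Every GR KO tumor was below every parental tumor of either treatment. The same order held in culture at lower levels, with 12.4, 6.96 and 9.69 CPM (DMSO) and 5.79 and 7.09 CPM (GC) in parental and 1.09, 1.10 and 0.753 CPM and 1.20, 1.23 and 1.96 CPM in GR KO cells. *Dio2* kept a log2 difference of -2.05 to -3.29 in all 4 comparisons of the genotypes.

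*Ptpn7* encodes a tyrosine phosphatase of blood cells that acts on MAP kinases. Control tumors had 23.6, 25.8, 20.6, 33.8 and 11.6 CPM in the parental group and 14.4, 11.6, 10.8, 42.9 and 4.98 CPM in the GR KO group. GC-treated tumors had 31.2, 15.3, 24.3, 24.4 and 12.5 CPM in the parental group and 17.0, 11.3, 13.9, 2.38 and 12.8 CPM in the GR KO group. The genotypes overlapped, and GR KO control tumor 4 was the highest of the 20 tumors. In cultures, parental cells had 49.8, 44.6 and 61.2 CPM with DMSO and 50.8 and 46.4 CPM with GC. GR KO cells had 0.208, 0.143 and 0.161 CPM with DMSO, and with GC no read in 3 cultures against 1763 in parental cultures, at least 875-fold lower with the floor at 3 reads over the group. Of 8 T cell markers, 7 had no read in any culture, and their summed level in tumors was 154 ± 47.4 CPM (parental, control; SD, n = 5), 109 ± 27.8 (parental, GC), 223 ± 74.1 (GR KO, control) and 85.9 ± 25.6 (GR KO, GC). The sum was highest in GR KO control tumor 4, at 331 CPM among the 5 of that group, with *Cd2* the most abundant gene. Over 20 tumors, deviations of *Ptpn7* and of this sum from their group means had a Pearson r of 0.72, with library depth and tissue composition in common. For *Ptpn7* r was also 0.63 with macrophage, 0.58 with lymphatic endothelial and 0.53 with striated muscle markers, and *Ccdc3* had 0.61 with T cell markers. Negative values were as large, with *Fstl3* (-0.75) and *Pdpn* (-0.62) against keratinocyte, *Crip1* (-0.58) against fibroblast and *S100a16* (-0.57) against blood endothelial markers. The part of T cells in the tumor level of *Ptpn7* was not tested.

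Of the intracellular members, *Crip1* encodes a small LIM-domain protein and *S100a16* a calcium-binding EF-hand protein. *Crip1* was at 736, 419, 646, 534 and 612 CPM in control parental and 548, 646, 569, 565 and 459.5 CPM in control GR KO tumors. With GC it was at 428, 451, 386, 603 and 367 CPM in parental and 203, 265, 211, 337 and 234 CPM in GR KO tumors. The control groups overlapped, and the GC-treated GR KO tumors were all below the parental ones. Cultures had *Crip1* at 155, 179 and 133 CPM (parental, DMSO), 155 and 153 (parental, GC), 3.58, 2.34 and 3.44 (GR KO, DMSO) and 3.76, 3.40 and 4.54 (GR KO, GC). *S100a16* showed the same order, with overlap in control tumors at 162, 114, 191, 176 and 221 CPM (parental) and 215, 167, 151, 158 and 139 CPM (GR KO). With GC its level was 176, 190.4, 141, 173 and 129.6 CPM in parental and 84.2, 95.9, 85.0, 112 and 99.5 CPM in GR KO tumors, without overlap. Its culture levels were 49.6, 50.4 and 46.2 CPM (parental, DMSO), 42.8 and 45.6 (parental, GC), 0, 0.334 and 0 (GR KO, DMSO) and 0.342, 0.236 and 0.126 (GR KO, GC). With DMSO, 7 reads in GR KO against 2367 in parental cultures made it 409-fold lower (95% counting interval 198 to 1018). All 7 reads came from culture 2, so this ratio rests on that library.

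**Figure D1:**
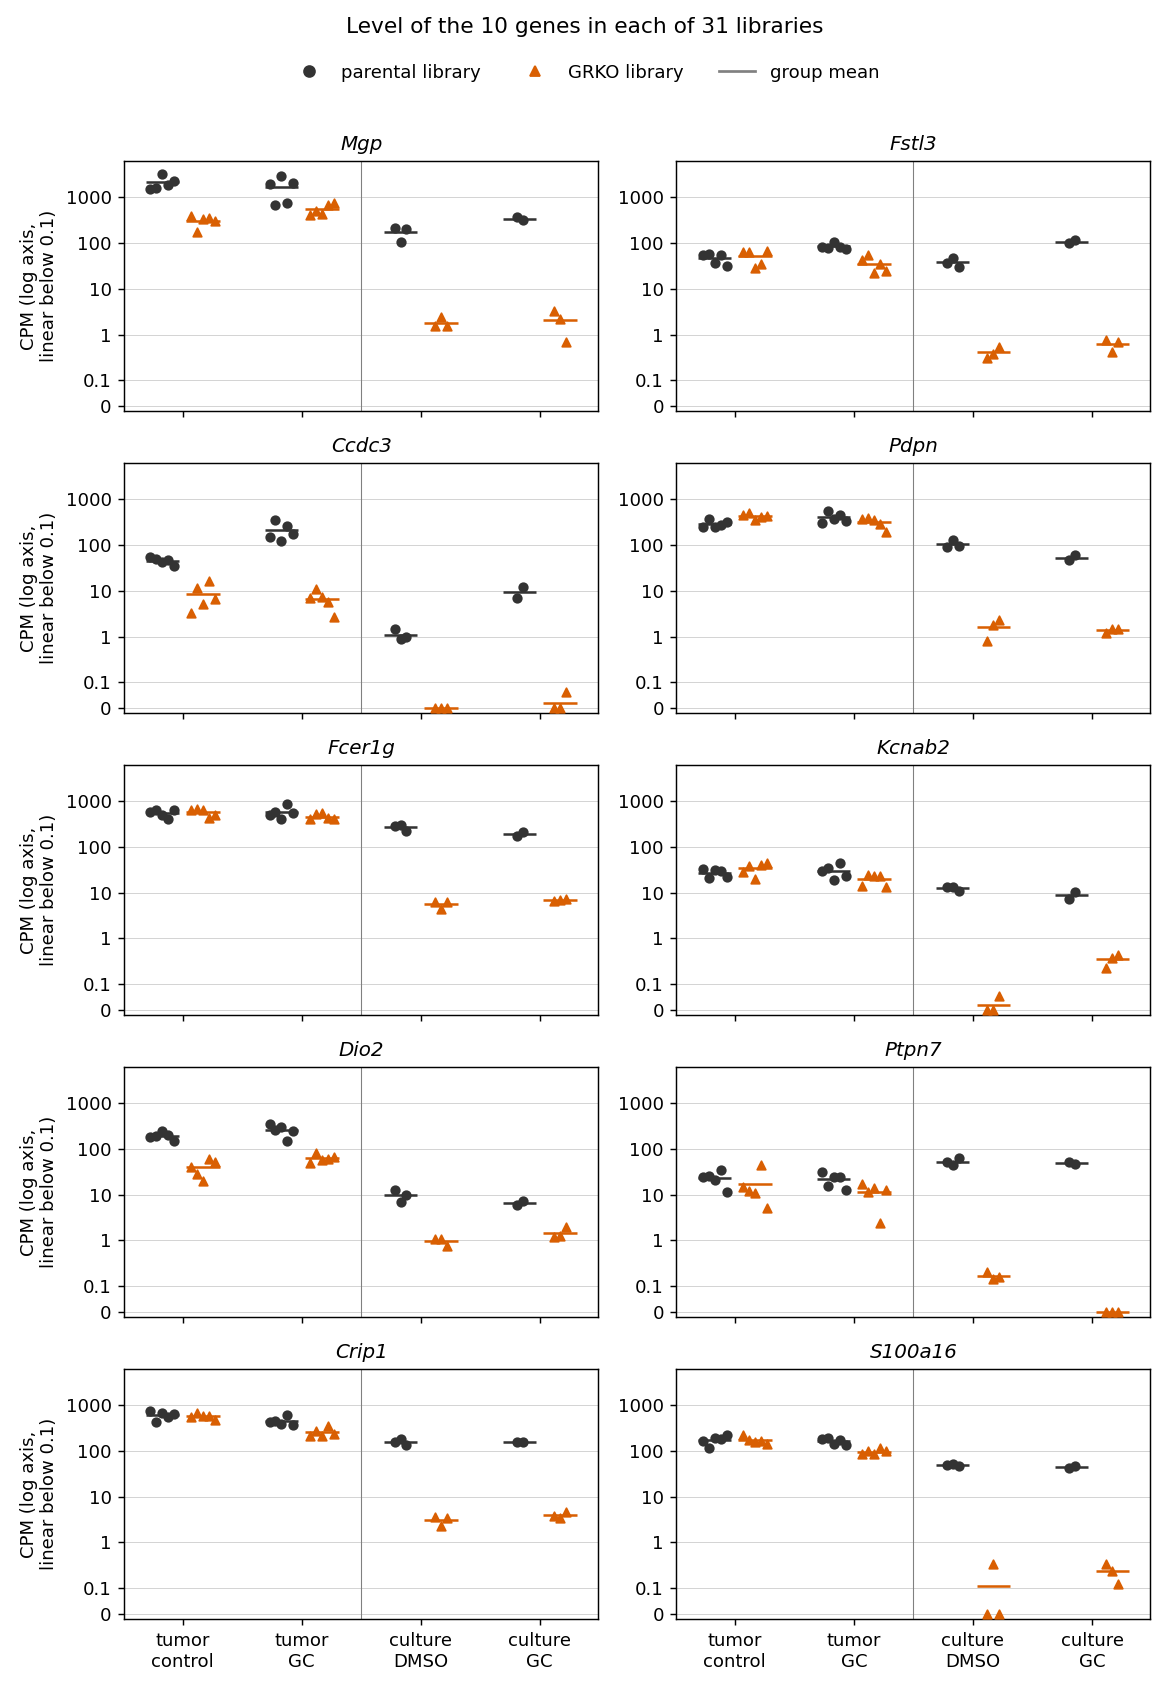
Level of each of the 10 genes in CPM (log axis, linear below 0.1) in 20 tumors and 11 cultures, by treatment, with black circles for parental libraries, orange triangles for GRKO libraries and lines for group means. The cultures of the genotypes are apart for all 10 genes, whereas in control tumors 7 of the 10 overlap.

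Side by side, the 10 genes differed by system without drug. In DMSO cultures the GR KO libraries were below the parental ones for 10 of 10 genes and for 17.5% of the 12525 genes tested. Over all genes, 6.04% were called lower and 2.18% higher with DMSO. Since this comparison chose the genes, nothing is read from the count. The median log2 difference was -6.51 for the members (-6.24 with *Ccdc3*, which had no GR KO read, at its bound) and 0.01 over all genes. In control tumors 6 of the 10 were lower and 4 higher in GR KO, and 3 (*Mgp*, *Ccdc3* and *Dio2*) had every GR KO tumor below every parental tumor, which held for 1.98% of the 15919 genes tested. Over all genes, 0.986% were called lower and 1.26% higher in control tumors. Their median was -0.07, against -0.04 over all genes. The fitted values in control tumors were -2.75 (SE 0.36) for *Mgp*, -2.38 (SE 0.38) for *Ccdc3* and -2.26 (SE 0.27) for *Dio2*, and -0.44 to 0.55 for the other 7. Without the 6 tumors with a high share of *Gm26924*, against the single GR KO tumor left, they were -2.64, -1.36 and -1.67, while *Fstl3* (-0.35) and *Fcer1g* (-0.32) became negative and *Ptpn7* (0.91) and *Crip1* (0.04) positive. The *Ptpn7* value of -0.44 in control tumors was -1.15 to -0.21 with each library left out. Bulk RNA cannot tell fewer cells of a type from less RNA per cell, which bears on all tumor levels.

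GC-treated tumors were not used in the choice of genes. The spread behind the tests was estimated over all 4 tumor groups, so the control tumors enter the p-values. All 10 members had a lower mean in GR KO than in parental GC-treated tumors, and 5 were called lower (*Mgp*, *Fstl3*, *Ccdc3*, *Dio2* and *Crip1*), where 0.44% of the 15919 genes tested were called lower (70 genes) and 0.195% higher (31 genes). A gene was called when its adjusted p (edgeR quasi-likelihood, Benjamini-Hochberg over all genes tested) was under 0.05 and its fold at least 1.5. The groups did not overlap for 5 members (*Fstl3*, *Ccdc3*, *Dio2*, *Crip1* and *S100a16*), where every GR KO tumor was below every parental tumor for 2.31% of genes. The median log2 difference of the members was -0.87, against 0.01 over all genes. The count of 5 was 3 without parental GC tumor 2, 3 or 4 or GR KO GC tumor 2 or 5, 2 without GR KO GC tumor 1 or 3, and 3 with the compared groups alone, and the 70 genes called lower were 29 to 102 with each tumor left out. All 10 passed the low-count filter in tumors on the libraries of either genotype alone.

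*Ccdc3* fell furthest, from a parental mean of 204 ± 90.1 CPM (SD, n = 5) to 6.61 ± 2.93 CPM in GR KO tumors with GC, a log2 difference of -4.95 (SE 0.42, adjusted p = 3.64e-07). *Dio2* fell from 256 ± 75.1 to 61.9 ± 11.1 CPM, a log2 difference of -2.05 (SE 0.26, adjusted p = 0.000274). For each of these 2 genes and for *Fstl3*, *Crip1* and *S100a16*, a two-sided exact permutation test over the 10 tumors gave p = 0.00794, the smallest that 5 against 5 samples allow. With each of the 20 tumors left out in turn, *Ccdc3* and *Dio2* were called 20 of 20 times.

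The calls of the other 3 genes were less stable. *Mgp* was lower in GR KO by a log2 difference of -1.59 (SE 0.34, adjusted p = 0.0256, exact permutation p = 0.0397), and its call was lost without parental GC tumors 3 (adjusted p = 0.0813) or 5 (0.0682) or GR KO GC tumors 1 (0.0871), 2 (0.0639) or 3 (0.0875). *Fstl3* differed by -1.24 (SE 0.27, adjusted p = 0.0267). Its call was lost without parental GC tumors 2 (adjusted p = 0.0564), 3 (0.0679) or 4 (0.0609) or GR KO GC tumors 1 (0.0542), 3 (0.0901), 4 (0.0576) or 5 (0.0999). *Crip1* differed by -0.84 (SE 0.19, adjusted p = 0.0388). Its call was lost without parental GC tumors 1 (adjusted p = 0.0507), 2 (0.0813) or 4 (0.124) or GR KO GC tumors 1 (0.115), 2 (0.0673), 3 (0.112) or 5 (0.108). With the 2 compared groups fitted alone, *Mgp* had an adjusted p of 0.0741 and *Crip1* of 0.0845.

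*S100a16* was just outside the threshold, with a log2 difference of -0.77 (SE 0.18, adjusted p = 0.0509 by edgeR). With each of the 20 tumors left out in turn, it was called 5 of 20 times, with an edgeR adjusted p of up to 0.139. It was called without parental control tumors 2 (adjusted p = 0.0291) or 5 (0.0400), without parental GC tumor 5 (0.0486) and without GR KO control tumors 1 (0.0355) or 4 (0.0422), by DESeq2 (0.00451), with DESeq2 size factors in edgeR (0.0496), with the filterByExpr filter (0.0492) and with *Gm26924* left out of the counts (0.0404). The remaining 4 members did not pass the threshold. *Ptpn7* had a log2 difference of -0.91 (95% interval -1.87 to 0.06, adjusted p = 0.469) and *Kcnab2* of -0.61 (-1.15 to -0.07, adjusted p = 0.376). *Pdpn* had -0.35 (-0.77 to 0.07, adjusted p = 0.521) and *Fcer1g* -0.32 (-0.74 to 0.09, adjusted p = 0.562). These intervals do not reach the differences of the same genes in GC-treated cultures. That is a description, as the choice of genes favors this contrast. *Kcnab2* and *Ptpn7* also passed the culture filter only through parental libraries. Without the 6 tumors with a high share of *Gm26924* the same 5 members were called, with log2 differences of -1.69 for *Mgp*, -1.23 for *Fstl3*, -4.89 for *Ccdc3*, -2.04 for *Dio2* and -0.97 for *Crip1*.

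Markers of host cells were compared in the same GC-treated tumors. The summed level of 10 macrophage and monocyte markers was 5102 ± 1587 CPM (SD, n = 5) in parental and 4546 ± 1239 CPM in GR KO tumors, with *C1qa* the most abundant. For 10 fibroblast markers it was 9901 ± 1489 and 9769 ± 1818 CPM. The 6 mast cell markers summed to 258 ± 49.5 CPM in parental and 117 ± 19.98 CPM in GR KO tumors. Of these, the proteases *Tpsb2* (log2 -1.29, adjusted p = 0.0194) and *Mcpt4* (-1.38, adjusted p = 0.00517) fell in GR KO. *Ms4a2* had no read in parental GC-treated tumors. The mast cell sum with GC had every GR KO tumor below every parental tumor. In control tumors the macrophage sum was 4149.9 ± 831 CPM (parental) and 6299 ± 1210.0 CPM (GR KO), which differed by *C1qa* (2377 and 4633 CPM), while the median log2 difference of the 10 markers was -0.14 and 0 were called by edgeR. The fibroblast sum in control tumors was 7283 ± 325 and 4895 ± 1179 CPM, with every GR KO tumor below every parental tumor. The mast cell sum was 164 ± 32.3 and 118 ± 21.0 CPM, with overlap. The 7 blood endothelial markers, of which *Kdr* was the most abundant, summed to 36.3 ± 7.08 CPM (parental) and 56.8 ± 4.35 CPM (GR KO) with GC, and to 64.0 ± 10.4 and 108 ± 7.28 CPM in control tumors. Every GR KO tumor was above every parental tumor of the same treatment in this sum. The keratinocyte sum was 1307 ± 855 CPM (parental) and 2497 ± 945 CPM (GR KO) in control tumors, with overlap, and 1017 ± 109 and 1157 ± 349.7 CPM with GC. In control tumors only *Krt14* of its 5 genes had a higher mean in GR KO (1014 and 2277 CPM, adjusted p = 0.1002), *Krt1* fell (-1.21, adjusted p = 0.0422), and the median of the list was -0.28. The neutrophil sum was 461 ± 294 and 191 ± 30.8 CPM in control tumors, and 177 ± 75.6 and 125 ± 45.1 CPM with GC, with overlap. It was almost all *Mmp9* (452 and 182 CPM in control tumors), and the median log2 difference of the 4 markers tested was 0.04 in control and 1.26 in GC-treated tumors, unlike the lower sums. The striated muscle sum was 374 ± 116 CPM (parental) and 296 ± 52.3 CPM (GR KO) with GC, with overlap. The median log2 difference of its 5 genes was -0.83 with GC and 0.35 in control tumors, with 0 called. The part of host cells in the tumor levels of the 10 genes was not tested.

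Cultures with GC were also not used in the choice, while the spread was again estimated with the untreated groups included. All 10 members were called lower in GR KO cultures with GC, where 3.78% of the 12525 genes tested were called lower and 1.76% higher, and every GR KO culture was below every parental culture for 10 of 10 members and for 16.8% of genes. The median log2 difference was -6.33 (the same with *Ptpn7*, which had no GR KO read, at its bound), against 0.02 over all genes. In cultures 6 members passed the low-count filter on the GR KO libraries alone, while *Ccdc3*, *Kcnab2*, *Ptpn7* and *S100a16* passed only through the parental libraries, so that the count of 10 and the median are a description. With the 5 compared cultures fitted alone, these 4 did not pass the filter and the other 6 were called.

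*Fstl3* fell from 105 ± 10.7 CPM (SD, n = 2) in parental to 0.620 ± 0.171 CPM (n = 3) in GR KO cultures with GC, a log2 difference of -7.41 (SE 0.29, adjusted p = 1.15e-07 by edgeR). *Crip1* had a log2 difference of -5.31 (SE 0.21, adjusted p = 1.15e-07), *Fcer1g* of -4.77 (SE 0.19, 1.15e-07) and *Pdpn* of -5.25 (SE 0.33, 4.18e-06). *Mgp* fell by 7.35 on the log2 scale (SE 0.48, adjusted p = 4.72e-06). For *Ccdc3*, *Kcnab2*, *Ptpn7* and *S100a16*, which passed the filter through the parental libraries, no test is given and the read counts above are the description. *Dio2* had the smallest difference of the 10, at -2.15 (SE 0.34, adjusted p = 0.00294). These 6 tested members were called with each of the 11 cultures left out in turn, and an exact permutation test of 3 against 2 cultures cannot go below p = 0.1.

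**Figure D2:**
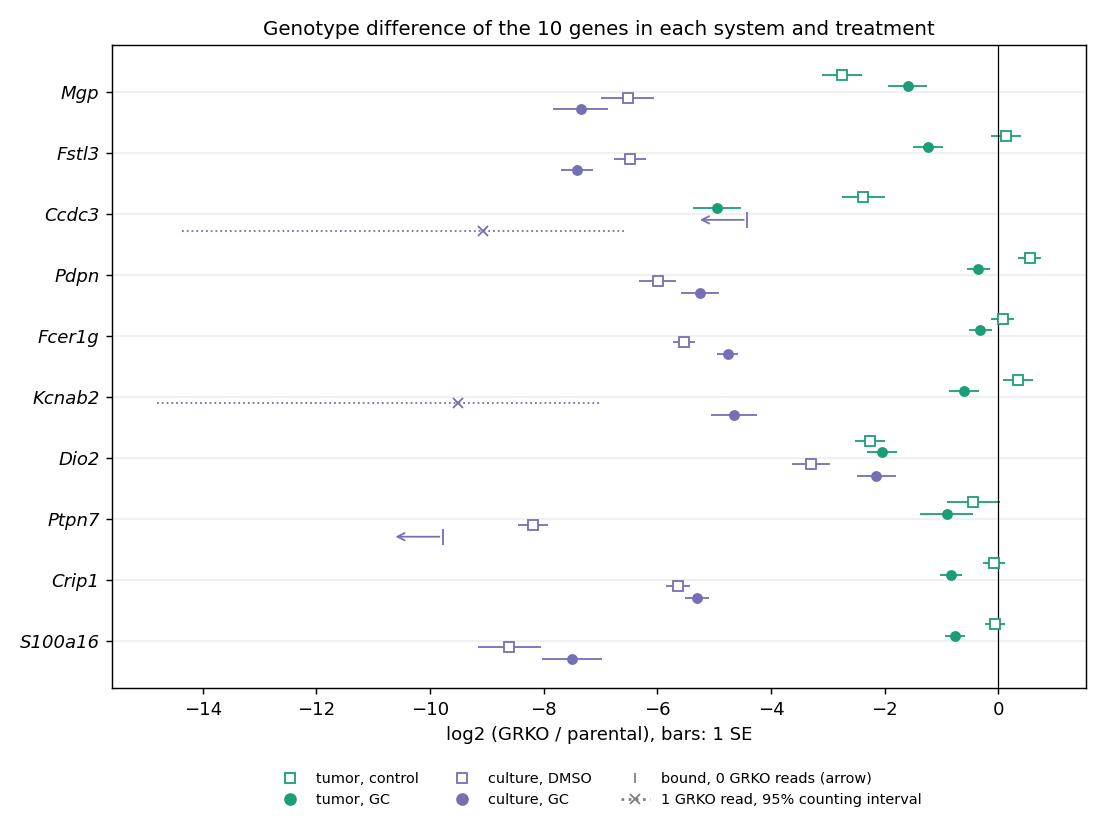
Fitted log2 ratio of GRKO to parental level for the 10 genes in control (open) and GC-treated (filled) tumors and cultures, with bars of 1 SE, ticks with arrows for bounds of groups without a GRKO read, and crosses with dotted lines for ratios from 1 GRKO read with the 95% counting interval. Culture values lie below -2, whereas in tumors only Mgp, Ccdc3 and Dio2 lie below -1.5 with any treatment.

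The difference between systems was estimated in a fit over all 31 libraries. It is the GR KO minus parental difference in GC-treated tumors minus that in GC-treated cultures. The choice of genes with large differences in untreated cultures or tumors of the same cells favors such a contrast. The count and the p-values of the fit are therefore a description. The difference was positive with an adjusted p under 0.05 for 8 of the 10 members and for 1.97% of the 16273 genes tested. These 8 include *Kcnab2*, *Ptpn7* and *S100a16*, which passed the culture filter only through the parental libraries. The values were 5.75 for *Mgp* (SE 0.64, adjusted p = 3.71e-07), 6.19 for *Fstl3* (SE 0.49, 2.98e-10), 4.92 for *Pdpn* (SE 0.39, 2.71e-10) and 4.46 for *Fcer1g* (SE 0.31, 2.34e-11). It was 4.48 for *Crip1* (SE 0.31, 1.68e-11). The fitted values of *Kcnab2* (4.06), *S100a16* (6.75) and *Ptpn7* (11.96) rest on GR KO cultures with few or no reads and are given without a test, and that of *Ptpn7*, with no read, is no estimate of size. That of *Ccdc3* (3.62, SE 1.25) is also given without a test, as the gene passed the culture filter only through parental libraries. *Dio2* (0.11, SE 0.45, adjusted p = 0.9999 by edgeR) did not pass, which does not show that its difference was equal in tumors and cultures. The *Ccdc3* value rests on 1 read in GR KO cultures and was 5.57 without the culture that held it, GR KO GC culture 3. The sign for *Dio2* turned without parental GC tumor 4 (-0.04), parental GC culture 2 (-0.05) or GR KO GC culture 2 (-0.01).

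Values of members with and without GC within a genotype share the untreated libraries with the choice of genes and were not tested. *Ccdc3* was higher with GC in all parental tumors (log2 2.19, SE 0.37) and all parental cultures (3.08, SE 0.51), whereas GR KO tumors overlapped (-0.38, SE 0.37). *Fstl3* was higher with GC in parental tumors (0.84, SE 0.27) and parental cultures (1.50, SE 0.22), whereas GR KO tumors overlapped (-0.54, SE 0.27). These 2 were the members whose GC-treated parental libraries were all above the untreated ones in both systems. *Mgp* was higher with GC in parental cultures (0.98, SE 0.38) and GR KO tumors (0.84, SE 0.34), whereas parental tumors overlapped (-0.32, SE 0.34). *Crip1* and *S100a16* were lower with GC in GR KO tumors, with log2 effects of -1.16 and -0.80, while parental tumors overlapped (-0.40 and -0.10). *Pdpn* (-0.99, SE 0.29), *Fcer1g* (-0.49, SE 0.18), *Kcnab2* (-0.48, SE 0.34) and *S100a16* (-0.14, SE 0.38) were lower with GC in all parental cultures. In GR KO cultures *Fcer1g* (0.28, SE 0.17), *Dio2* (0.56, SE 0.34) and *Kcnab2* (19 reads with GC and 1 with DMSO) were higher with GC. *Ptpn7* was lower (0 reads with GC and 10 with DMSO), and the other 6 overlapped. The *Dio2* value in GR KO cultures fell to 0.29 without GR KO GC culture 3. Without the tumors with a high share of *Gm26924*, the GC effect in GR KO tumors was -1.26 for *Ccdc3*, 0.04 for *Fstl3*, 0.56 for *Mgp*, -1.31 for *Crip1* and -0.80 for *S100a16*, against the single control GR KO tumor left. The non-overlap of the genotypes for *Fstl3*, *Crip1* and *S100a16* in tumors was thus present with GC and absent with control treatment.

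Genes related to the members by pathway or family, 87 in all and listed by function, were examined beside them. In GC-treated tumors 75 were tested and 0 were called by edgeR. Of these, 9 had an unadjusted p under 0.05 by edgeR, and DESeq2 called 1, beside 293 of all genes. In control tumors 1 fell (*Ank*, an exporter of pyrophosphate, -1.06, adjusted p = 0.0413) and 2 rose by edgeR, beside 0.986% and 1.26% of all genes. The 2 were *Fcgr4*, an Fc receptor that signals through the gamma chain (1.28, adjusted p = 0.0347), and *Crip2*, a paralog of *Crip1* (1.05, adjusted p = 0.0376). DESeq2 called 8 in control tumors. For these 8 and for the unadjusted p no share over all genes is given, so nothing is read from those counts. The median log2 difference of the related genes was 0.14 in GC-treated and -0.16 in control tumors, beside 0.01 and -0.04 over all genes. In cultures 47 were tested, with 4 called lower and 2 higher in GR KO with GC, beside 3.78% and 1.76% of all genes, and 9 lower and 3 higher with DMSO, beside 6.04% and 2.18%. The medians were -0.21 with GC and 0.03 with DMSO, beside 0.02 and 0.01 over all genes.

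By member, the culture calls came from most lists, but unevenly. The calcification list, with 9 genes tested, held 5 of the 9 lower calls with DMSO, beside 6.04% of all genes. It held 2 of the 4 with GC, beside 3.78%. The podoplanin and *Ptpn7* lists had 0 calls in cultures. Of the thyroid hormone genes, the receptor *Thra* fell with DMSO (-0.97, adjusted p = 0.000621) and with GC (-1.06, adjusted p = 0.000646). Of the genes of calcification, the bone morphogenetic protein *Bmp2* fell with DMSO (-3.71, adjusted p = 0.00111) and GC (-2.62, adjusted p = 0.0138), as did the matrix phosphoprotein *Spp1* (-1.54, adjusted p = 0.0200 and -1.52, adjusted p = 0.0393). *Enpp1*, which makes pyrophosphate, fell with DMSO (-1.49, adjusted p = 0.00126), as did *Ank* (-0.73, adjusted p = 0.00780). Of the activin list, the activin subunit *Inhba* rose with GC (1.06, adjusted p = 0.00824) and *Inhbb* fell with DMSO (-1.31, adjusted p = 0.0274). The antagonist *Fst*, a relative of *Fstl3*, was at 0.105 CPM in parental and 1.40 CPM in GR KO cultures with DMSO (log2 3.67). It did not pass the filter on parental libraries alone, so its call as higher is a description. The kinase *Syk*, which docks on the phosphorylated gamma chain, rose with DMSO (0.87, adjusted p = 0.00303), while *Tyrobp* and *Fcgr1* had no read in cultures. *Kcnab3*, a paralog of *Kcnab2*, rose with DMSO (1.13, adjusted p = 0.0272) and GC (1.74, adjusted p = 0.00871). The LIM protein gene *Csrp2* fell with DMSO (-0.69, adjusted p = 0.00986). Of the S100 genes, *S100a13* fell with GC (-0.61, adjusted p = 0.0237), and *S100b* had no read in GR KO cultures with DMSO against a parental mean of 1.07 CPM. Fibroblast markers in cultures summed to 238 ± 57.0 CPM with DMSO (SD, n = 3) and 191 ± 9.87 with GC in parental cells, and 78.4 ± 7.51 and 71.5 ± 12.6 in GR KO cells. Of 7 tested, 5 fell with DMSO and 4 with GC, the most abundant being *Col3a1* (log2 -1.37 and -1.21), while *Dpt* had no read, and their part in the culture levels of the members was not tested.

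Across all genes tested in tumors and in cultures (12278), 11 were called lower and 1 was called higher in GR KO in all 4 comparisons of genotype. The members *Ccdc3*, *Dio2* and *Mgp* are among the 11, which is a description only, since the untreated comparisons chose them and *Ccdc3* passed the culture filter through parental libraries. The others ranked highest by their smallest difference were *Col11a1*, a fibrillar collagen chain, *Agt*, the precursor of angiotensin, and *Cdh11*, a mesenchymal cadherin. *Col11a1* had means of 7.81 and 12.9 CPM in control and GC-treated parental tumors against 0.444 and 1.31 CPM in GR KO tumors, and 2 and 0 reads in GR KO cultures with DMSO and GC. *Agt* had 6.60 and 23.5 CPM against 1.10 and 3.08 CPM in tumors, and no read in GR KO cultures. *Cdh11* had 73.8 and 123 CPM against 17.0 and 39.5 CPM in tumors, and 1 and 0 reads in GR KO cultures. Like *Ccdc3*, the genes *Col11a1*, *Agt* and *Cdh11* passed the culture filter only through parental libraries, so their culture calls are a description. *Gm11033* was the gene called higher, with 3.43 and 7.03 CPM in control and GC-treated GR KO tumors against 0.126 and 0.151 CPM in parental tumors. Its means in cultures with DMSO and GC were 6.70 and 6.53 CPM in GR KO against 0.237 and 0.401 CPM in parental cells. *Gm11033* passed the filter in tumors and in cultures only through GR KO libraries, so its calls are a description too.

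Genes that varied most like each member within groups were listed by the Pearson r of deviations from the group means of log2(CPM + 1), as a description of libraries that share depth and composition. Over the 20 tumors these were *Mcm2* (0.90), *Arhgap18* (0.90) and *Cdr2l* (0.88) for *Mgp*, *Eif5b* (0.85), *Larp7* (0.84) and *Chd3* (0.84) for *Fstl3* and *Hsd17b11* (0.88), *Zfp319* (0.87) and *Mzb1* (0.84) for *Ccdc3*. For the membrane and channel members they were *Yipf5* (0.89), *Ikbkb* (0.88) and *Ehbp1l1* (0.86) (*Pdpn*), *Evl* (0.90), *Fam73b* (0.86) and *Ifitm3* (0.85) (*Fcer1g*) and *Ccl22* (0.87) and *Pml* (0.83) (*Kcnab2*). For the enzymes they were *Serp1* (0.88), *Ackr4* (0.86) and *Tmem109* (0.84) (*Dio2*) and *Ifi205* (0.93), *Ankrd17* (0.91) and *Isg20* (0.91) (*Ptpn7*). For the intracellular members they were *Slc25a29* (0.89) and *Fam98c* (0.86) (*Crip1*) and *Ube2j2* (0.82), *Ppp6c* (0.78) and *Pgpep1* (0.77) (*S100a16*). Over the 11 cultures they were *Adh5* (0.99), *Tmem194* (0.99) and *Ep400* (0.99) for *Mgp*, *Ogfrl1* (0.96), *Hps4* (0.96) and *Raly* (0.96) for *Fstl3* and *Mdk* (0.96), *Fntb* (0.94) and *Mapk8* (0.94) for *Ccdc3*. They were *Fars2* (0.97), *Usp37* (0.95) and *Fam161a* (0.94) for *Pdpn*, *Slc25a47* (0.96), *Wdtc1* (0.96) and *Tubb5* (0.95) for *Fcer1g* and *Gnrh1* (0.95), *Eapp* (0.94) and *Pth1r* (0.92) for *Kcnab2*. They were *Nuak2* (0.97), *Tead3* (0.96) and *Prokr2* (0.94) for *Dio2*, *Ccdc14* (0.97), *Sirt1* (0.97) and *S100a2* (0.97) for *Ptpn7*, *Col6a2* (0.98), *Tlcd1* (0.96) and *Mrps24* (0.96) for *Crip1* and *Gm14295* (0.98), *Gnpda1* (0.92) and *Mex3b* (0.92) for *S100a16*. Each r is among the highest over many genes, no value expected by chance is given, and no relation is read from it. Culture deviations of *Ccdc3*, *Kcnab2*, *Ptpn7* and *S100a16* come mostly from parental libraries, as GR KO cultures had few or no reads.

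The 10 genes lie on 7 chromosomes of GRCm38, with pairs on chromosomes 1 (*Fcer1g*, *Ptpn7*), 4 (*Pdpn*, *Kcnab2*) and 12 (*Dio2*, *Crip1*). *Ccdc3* is at chr2:5137776-5230878 on the plus strand and *Dio2* at chr12:90724552-90738438 on the minus strand. Of 100 tested neighbours, 5 on each side of each member, 3 were called lower (*Adamts4* beside *Fcer1g*, *Ptprv* beside *Ptpn7* and *S100a13* beside *S100a16*) and 1 higher (*Pde6h* beside *Mgp*) in GC-treated cultures, beside 3.78% and 1.76% of all genes. Exons of *Fstl3*, *Ccdc3*, *Kcnab2* and *Dio2* overlap those of *Prss57*, *Gm26776*, *Gm16334* and *Gm26512*. *Gm16334* is on the same strand as its neighbour and the others are on the opposite strand. The paper names no strand setting for the counting and refers to defaults for what it does not specify. Reads of these genes may therefore not be fully separated.

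Promoter sequences from RefSeq (GRCm38.p6) were found for 9 of the 10 members, in 13 windows of up to 250 bases before a start, all but *Mgp*. The half-site of the GC response element, AGAACA or its reverse complement TGTTCT, was searched on both strands, as was the full palindrome of both half-sites spaced by 3 bases, which contains it. The half-site was in the windows of 1 member (*Fstl3*) and in 16.1% of 32851 promoters of 250 bases, and the full motif in 0 members and 0.00913% of promoters. The windows of *Ccdc3* (chr2:5137526-5137775, plus strand) and *Fstl3* (chr10:79777024-79777271, plus strand) are shown because these 2 genes were higher with GC in parental tumors and cultures, with the half-site in capitals. A match is a description of letters, and a window without a match says nothing about binding elsewhere.
Ccdc3: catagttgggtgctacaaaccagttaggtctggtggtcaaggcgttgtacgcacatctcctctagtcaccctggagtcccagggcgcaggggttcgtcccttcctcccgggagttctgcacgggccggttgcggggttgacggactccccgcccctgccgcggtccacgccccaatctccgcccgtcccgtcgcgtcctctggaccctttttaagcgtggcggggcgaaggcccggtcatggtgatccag
Fstl3: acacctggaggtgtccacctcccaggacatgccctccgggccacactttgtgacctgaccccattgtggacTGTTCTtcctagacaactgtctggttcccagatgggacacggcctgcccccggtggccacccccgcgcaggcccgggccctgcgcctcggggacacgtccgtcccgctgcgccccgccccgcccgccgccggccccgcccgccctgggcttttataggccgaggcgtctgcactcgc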

How the data were processed

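RNA of 20 tumors and 11 cultures was sequenced with QuantSeq 3′ FWD libraries. The authors trimmed reads with Trim Galore 0.6.5 and aligned them with STAR 2.6.1d to GRCm38. They deposited integer read counts per gene from featureCounts with the Ensembl 75 annotation. The version and strand setting of featureCounts are not named, and the paper refers to defaults for what it does not specify. Totals were 15528066 to 26386770 counts per tumor and 14441166 to 22463188 per culture, so that 3 counts are 0.114 to 0.193 and 0.134 to 0.208 CPM. Replicates differed by more than sampling noise (mean chi-square per gene 8.60 to 435 over 50 pairs).

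Genes with at least 0.5 CPM in at least 3 libraries were kept, counts were scaled by TMM, and the 4 groups of tumors, the 4 of cultures, and all 31 libraries were fitted in edgeR 4.0.16 under R 4.3.3 (quasi-likelihood F test), adjusted by Benjamini-Hochberg over all genes tested. Group means of single genes were also compared by two-sided exact permutation tests. The procedure was also run on simulated data, and no value given here rests on that run. The members are the genes whose symbol equals a name in the list; members, gene lists and tests were chosen with earlier results of these data known. Named genes are the 10 members, *Nr3c1* and 3 of its response genes, called genes of each related list (at most 4), the most abundant marker of each list described, up to 3 genes most alike per member, and up to 5 genes per direction called in all 4 contrasts. Some genes that this rule selects, among them called markers other than those named, are not reported, and *Mcpt4* and *Krt1* were named after their values were seen. Alternatives were DESeq2 1.42.0, its size factors, other filters and folds, the compared groups alone, the replicate number as a block, each library left out, and, chosen after seeing the data, leaving out *Gm26924* or tumors rich in it. Same-numbered libraries were checked for pairing. Positions were found for 15765 of 15919 and 12428 of 12525 tested genes.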

Additional observations from a re-analysis of the deposited data

Results flagged for a closer look

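*Ptpn7* in GR KO control tumor 4 was 42.9 CPM, far from the other 4 tumors of its group (4.98 to 14.4 CPM). *Fstl3* in parental GC tumor 3 was 102 CPM, far from the other 4 (72.8 to 80.5 CPM). These are 2 of 40 groups examined, and chance flags about 1 in 20 groups.

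The GR KO minus parental difference with GC was smaller in tumors than in cultures, with an adjusted p under 0.05, for 8 genes. The choice of these genes favors such a contrast. Of the 8, *Kcnab2*, *Ptpn7* and *S100a16* passed the culture filter only through the parental libraries, so the count is a description and no test. On the log2 scale, tumors minus cultures, the value was 5.75 for *Mgp*, 6.19 for *Fstl3*, 4.92 for *Pdpn*, 4.46 for *Fcer1g*, 4.06 for *Kcnab2*, 4.48 for *Crip1* and 6.75 for *S100a16*. The values of *Kcnab2* and *S100a16* rest on few reads in GR KO cultures. The fitted 11.96 for *Ptpn7* rests on a group without a read and is no estimate of size. The part of host cells in these differences was not tested.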

How the results depend on the processing

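In GC-treated tumors the number of members called (5) was 2 to 6 with each library left out and 3 with the compared groups alone, where fewer samples estimate the spread. It was 3 without parental GC tumor 2, 3 or 4 or GR KO GC tumor 2 or 5, and 2 without GR KO GC tumor 1 or 3. The number of genes called (101) was 40 to 149 with each library left out: 47 and 54 without parental GC tumors 2 and 4, and 52, 46 and 40 without GR KO GC tumors 1, 3 and 5. It was 293 with DESeq2 and 170 without tumors over 5% *Gm26924*. In GC-treated cultures members called were 10 with each library left out, 4 of them kept by the filter through parental libraries, and 6 with the compared groups alone. Genes called (695) were 322 to 842 with each library left out (322 and 332 without parental GC cultures 1 and 2, which leaves a lone parental culture assumed to vary like the other groups, and 447 without GR KO GC culture 2), and 230 with the compared groups alone. The cause of these moves was not tested. The difference between systems had an adjusted p under 0.05 for 8 members under all alternatives run. These include *Kcnab2*, *Ptpn7* and *S100a16*, which the culture filter kept through parental libraries, so the count is a description. The sign of the difference turned for *Dio2* (-0.0412, -0.0454 and -0.00857) without the 3 libraries named with its value. Its range was -0.0454 to 0.353 over all left-out libraries.

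A block for replicate number gave the same counts of members (5 in GC-treated tumors and 10 in cultures) and other counts of genes (160 and 538). As a check of pairing, deviations of same-numbered libraries from their group means had r of 0.0998 to 0.389 between parental and GR KO GC-treated tumors (5 pairs) and 0.237 to 0.620 in cultures (2 pairs), with mixed signs between most other groups, so the numbers were not taken as pairs.

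Depth sets a floor of 3 counts per library, under which *Ccdc3*, *Kcnab2*, *Ptpn7* and *S100a16* lay in some GR KO cultures, so that sizes of differences among those cultures are uncertain.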
